A study of Mus musculus with 6 samples.

Results

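The mitochondrial ribosomal RNAs mt-Rnr1 and mt-Rnr2 were followed in the RNA of exosomes, the small vesicles that cells release into their medium. Members were the rows of the deposited non-coding RNA (ncRNA) count table whose transcript identifier belongs, in GENCODE mouse release 21, to a gene of type Mt_rRNA. This gave 2 members among 5880 transcripts. UD-P19 exosomes (replicates 1, 2 and 3) came from undifferentiated P19 cells, a pluripotent mouse embryonal teratocarcinoma line, kept in alpha-MEM with N2 supplement during collection. P19N exosomes (replicates 4, 5 and 6) came from P19 neurons, made from the same line with retinoic acid and then held in neurobasal medium with B27 and N2 supplements. Neuronal cultures were also exposed to fluorouridine and uridine against dividing cells, early in culture and again after the 8-day medium had been collected, so the 10-day and 12-day libraries followed a further exposure. The P19N libraries came from cultures 8, 10 and 12 days old, 1 library for each age. Neuronal medium was collected on day 8 and on alternate days after that, and whether the P19N libraries came from the same flasks is not stated. The study describes the libraries of both groups as biological replicates and their exosome preparations as independent. Cell state, medium and exposure to retinoic acid, fluorouridine and uridine therefore changed together between the groups and cannot be told apart, nor can culture age, the further exposure and library within P19N. Exosomes were collected by differential centrifugation in both groups.

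Mitochondria keep a small circular genome and their own ribosomes. mt-Rnr1 encodes the rRNA of the small ribosomal subunit and mt-Rnr2 that of the large subunit, and both are copied from the same strand as part of long transcripts that also hold tRNAs. Enzymes that recognise the tRNAs cut them out, which frees the rRNAs between them. The rRNAs work inside the mitochondrion, while the rRNAs of the cytosolic ribosome are made from nuclear genes.

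On GRCm38, mt-Rnr1 (ENSMUST00000082388.1) lies at chrM:70-1024 on the plus strand, is 955 nt long and has a GC content of 35.8%. mt-Rnr2 (ENSMUST00000082390.1) lies at chrM:1094-2675 on the same strand, is 1582 nt long and has a GC content of 35.4%. Each is a single exon with no intron, and tRNA genes stand at their borders. mt-Tf, the tRNA for phenylalanine, is separated from mt-Rnr1 by 1 base, mt-Tv (valine) fills the space between the rRNAs, and mt-Tl1 (leucine) follows mt-Rnr2 with no base between. The stretches below, read from the GENCODE transcripts, show the sequence at these borders, with rRNA in lower case and tRNA in capitals. The first is mt-Tf (chrM:1-68) and the next the 5′ end of mt-Rnr1 (chrM:70-129), without the base between them. A further stretch runs from mt-Rnr1 through mt-Tv into mt-Rnr2 (chrM:985-1133), and the last from mt-Rnr2 through mt-Tl1 (chrM:2636-2750), all on the plus strand.
mt-Tf: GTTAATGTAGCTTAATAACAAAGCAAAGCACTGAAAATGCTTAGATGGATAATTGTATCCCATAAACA
mt-Rnr1 start: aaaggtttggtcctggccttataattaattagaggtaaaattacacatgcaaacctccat
mt-Rnr1, mt-Tv, mt-Rnr2: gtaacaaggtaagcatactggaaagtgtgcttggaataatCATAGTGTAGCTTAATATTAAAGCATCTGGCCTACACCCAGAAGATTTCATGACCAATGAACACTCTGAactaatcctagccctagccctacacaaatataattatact
mt-Rnr2, mt-Tl1: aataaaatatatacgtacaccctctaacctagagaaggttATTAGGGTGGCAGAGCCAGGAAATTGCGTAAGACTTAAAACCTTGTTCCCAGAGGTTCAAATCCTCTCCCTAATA

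The rRNA sequences were checked for stretches that could send reads elsewhere. No run of 20 bases of either rRNA occurred in another of the 5773 table transcripts whose sequence was at hand (107 were not searched), and every count of both members was listed as unique. In all GENCODE transcripts, mt-Rnr1 again shared no run of 20 bases. mt-Rnr2 shared 82 of its 1563 runs of 20 bases (5.25%) with 2 other transcripts, neither of which the table lists. Nuclear copies of mitochondrial DNA outside annotated transcripts were not examined.

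The libraries held between 454499 and 887460 counts, and between 1679 and 2800 transcripts had at least 1 count. UD-P19 replicate 2 stood apart from the other UD-P19 libraries in several ways. It had the 2800 detected transcripts, against 1679 and 1907 in replicates 1 and 3, and 44.2% of its counts were listed as exact matches, against 57.0% to 64.4% in the other 5 libraries. Gm42418, which covers part of the 45S cytosolic rRNA repeat, took 60.1%, 49.1% and 65.9% of the counts in UD-P19 replicates 1 to 3 and between 16.3% and 18.2% in P19N. Of 11 markers of undifferentiated cells, 4 were in the table under the names searched, with summed levels of 0 to 8.27 CPM (counts for each 1000000 of the library size as scaled by edgeR's TMM factors) in UD-P19 and 0 to 1.39 CPM in P19N. Of these 4, Mir293, Mir302a and Mir302b, miRNA genes of pluripotent cells, had 1, 3 and 5 counts in UD-P19 and 0 in P19N, and the long ncRNA Lncenc1 had 0 and 2. Mir9-1, Mir9-2 and Mir9-3, miRNA genes of the neural lineage, had 0 counts in UD-P19 and 3, 2 and 2 in P19N, and the host gene Mir9-3hg had 1 in each group. All 11 neuronal markers were in the table, and their sum was 26.9, 208 and 54.5 CPM in UD-P19 replicates 1 to 3 and between 113 and 175 CPM in P19N. The high sum in UD-P19 replicate 2 came mostly from the long ncRNAs Rian (93 counts) and Meg3 (65 counts). None of the 4 markers of mesenchymal, smooth muscle or blood cells was in the table.

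Both mitochondrial rRNAs were among the abundant RNAs of these exosomes. By counts among all transcripts of a library, mt-Rnr2 had ranks 55, 3 and 55 in UD-P19 replicates 1 to 3 and 107, 94 and 23 in P19N replicates 4 to 6. mt-Rnr1 had ranks 110, 51 and 75, and 159, 120 and 33. Counts not listed as unique entered these ranks too, whereas every count of both rRNAs was unique. Unique counts made up 74.3%, 62.1% and 78.0% of UD-P19 replicates 1 to 3, and 33.3%, 32.1% and 38.5% of P19N replicates 4 to 6. The ranks are thus not directly comparable between the groups. Summed over the 6 libraries mt-Rnr2 had 22336 counts and mt-Rnr1 8944, of which UD-P19 replicate 2 and P19N replicate 6 gave the most. The counts are of short reads, and neither their positions within the rRNAs nor the length of the RNA molecules was analysed here.

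mt-Rnr1 had 419, 4058 and 904 counts in UD-P19 replicates 1, 2 and 3, and 410, 724 and 2429 counts in P19N replicates 4, 5 and 6. After scaling these were 1026, 4796 and 1492 CPM in UD-P19 and 482, 955 and 3380 CPM in P19N. UD-P19 replicate 2 and P19N replicate 6, the 12-day culture, were high, the other 4 libraries lay lower, and the groups overlapped. The means were 2438 ± 2055 CPM in UD-P19 and 1606 ± 1555 CPM in P19N (SD, n = 3 each), so the difference was smaller than the spread within either group. In these bulk preparations, fewer vesicles that carry an RNA and less of it per vesicle cannot be told apart.

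mt-Rnr2 showed the same high and low libraries. Its counts were 1302, 9204 and 2013 in UD-P19 replicates 1 to 3, and 1216, 1874 and 6727 in P19N replicates 4 to 6. Scaled levels were 3189, 10879 and 3323 CPM in UD-P19 and 1429, 2472 and 9361 CPM in P19N, with means of 5797 ± 4402 and 4421 ± 4310 CPM (SD, n = 3 each). Within P19N both rRNAs were lowest in the 8-day library, intermediate in the 10-day library and highest in the 12-day library, each age being a single library. Within UD-P19, where replicates have no such label, the highest library exceeded the lowest by 4.67-fold for mt-Rnr1 and 3.41-fold for mt-Rnr2.

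**Figure D1:**
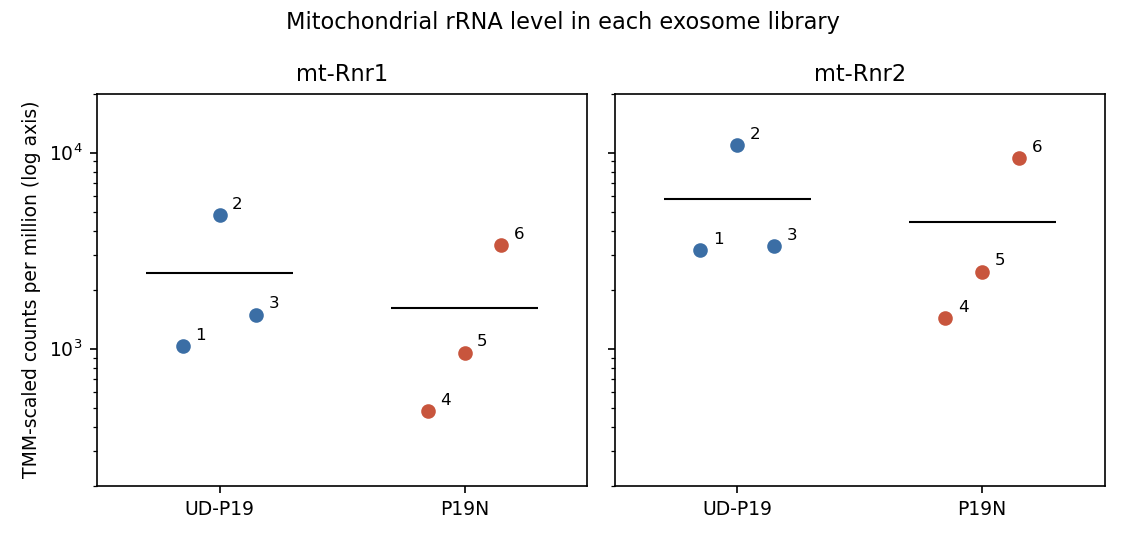
Level of mt-Rnr1 and mt-Rnr2 in TMM-scaled CPM on a log axis, 1 point for each library with its replicate number, and a line at the mean of each group. Replicates 2 and 6 lie above the others in both panels, and the groups overlap.

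Neither rRNA passed edgeR's quasi-likelihood test between P19N and UD-P19 exosomes, 0 of 2 members, where 24% of the 1286 tested transcripts passed (adjusted p up to 0.05). The log2 fold change of mt-Rnr1, P19N over UD-P19, was -0.60 (SE 0.63, 95% interval -1.94 to 0.73, adjusted p = 0.493, unadjusted p = 0.351). For mt-Rnr2 it was -0.39 (SE 0.59, 95% interval -1.65 to 0.87, adjusted p = 0.651, unadjusted p = 0.518). These intervals include decreases of more than 1 and increases of more than 0.7 on the log2 scale, so the libraries do not show that the levels were alike. edgeR's exact test and DESeq2 also called neither of them, and the adjusted p ranged from 0.0607 to 0.783 for mt-Rnr1 and from 0.0573 to 0.927 for mt-Rnr2 over all 16 alternatives.

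The direction of both fold changes rested on 1 library. Without UD-P19 replicate 2 they turned positive, 0.73 for mt-Rnr1 and 0.82 for mt-Rnr2. Without P19N replicate 6 they became -1.76 and -1.56. Neither rRNA was called in any of the 6 fits that left out 1 library. The part that the low exact-match share and the marker sum of UD-P19 replicate 2 have in these values was not tested. Scaling also moved the tested transcripts as a whole. Over all of them the median log2 fold change was 0.21 with TMM scaling and -0.02 when Gm42418 was left out before scaling. Relative to these medians mt-Rnr1 stood at -0.82 and -0.71 and mt-Rnr2 at -0.61 and -0.49. Calls over the tested transcripts were 193 higher and 116 lower with TMM, and 174 higher and 196 lower without Gm42418.

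The spread of the rRNAs between libraries of a group was large for RNAs this abundant. Their SD within groups was 1.30 (mt-Rnr1) and 1.21 (mt-Rnr2) on the log2 CPM scale. The median SD was 0.56 for the 757 tested transcripts that averaged 10 or more counts per library, of which 10 had a larger SD than mt-Rnr1 and 18 a larger SD than mt-Rnr2. Among the 100 transcripts that averaged 1000 or more counts, a limit chosen after the values were seen, mt-Rnr1 and mt-Rnr2 had the largest SDs and the median was 0.36. Many of these 100 were copies of the cytosolic 5S rRNA gene (n-R5s), with SDs close to that median. Few counts of these copies were listed as unique, so the 100 transcripts are not 100 independent RNAs. The mitochondrial tRNA with the most counts, mt-Ts2, had an SD of 0.48. Of the bordering tRNAs, mt-Tv had an SD of 1.23 and mt-Tl1 of 1.13.

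**Figure D2:**
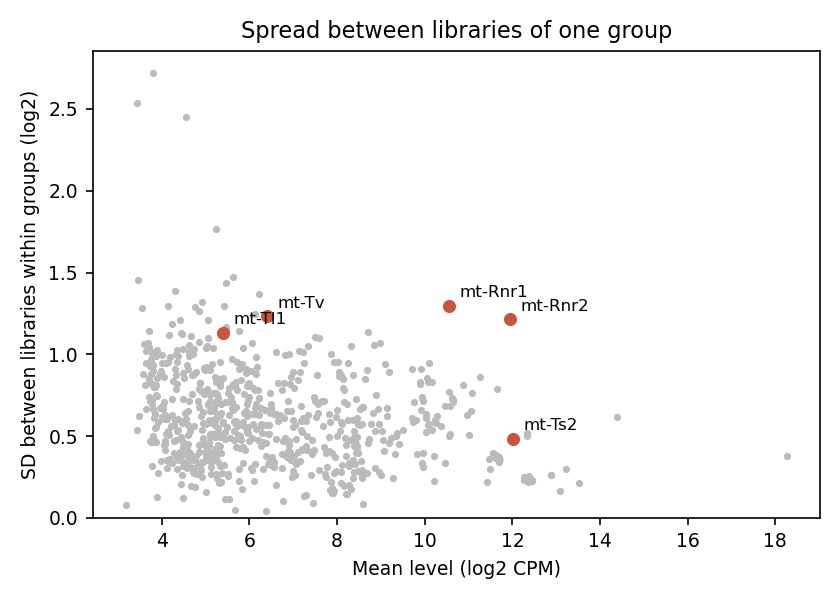
SD between libraries within groups (log2) against the mean level (log2 CPM) for the 757 tested transcripts that averaged 10 or more counts, with mitochondrial RNAs in red. mt-Rnr1 and mt-Rnr2 lie above all other transcripts of similar or higher level, at SDs of 1.30 and 1.21, while mt-Ts2 lies at 0.48. Many points at high level are copies of the 5S rRNA gene, few of whose counts were listed as unique.

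While the level moved several-fold, the ratio of the rRNAs moved little. mt-Rnr1 had 0.322, 0.441 and 0.449 counts for each mt-Rnr2 count in UD-P19 replicates 1 to 3, and 0.337, 0.386 and 0.361 in P19N replicates 4 to 6. The highest ratio was 1.40 times the lowest, and the groups overlapped. The 95% Wilson interval, which covers counting error only, was 0.288 to 0.359 in UD-P19 replicate 1 and 0.415 to 0.486 in replicate 3. The mean log2 ratio was -1.47 ± 0.10 in P19N and -1.32 ± 0.27 in UD-P19 (SD, n = 3 each), a difference of -0.15 (exact two-sided permutation test over 20 relabellings, p = 0.4, adjusted over 3 such tests p = 0.5, smallest p possible 0.1). With 1 library left out this difference ran from -0.30 (without UD-P19 replicate 1) to -0.06 (without UD-P19 replicate 3). Per base of rRNA, mt-Rnr1 had between 0.533 and 0.744 of the counts of mt-Rnr2, below it in 6 of 6 libraries.

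**Figure D3:**
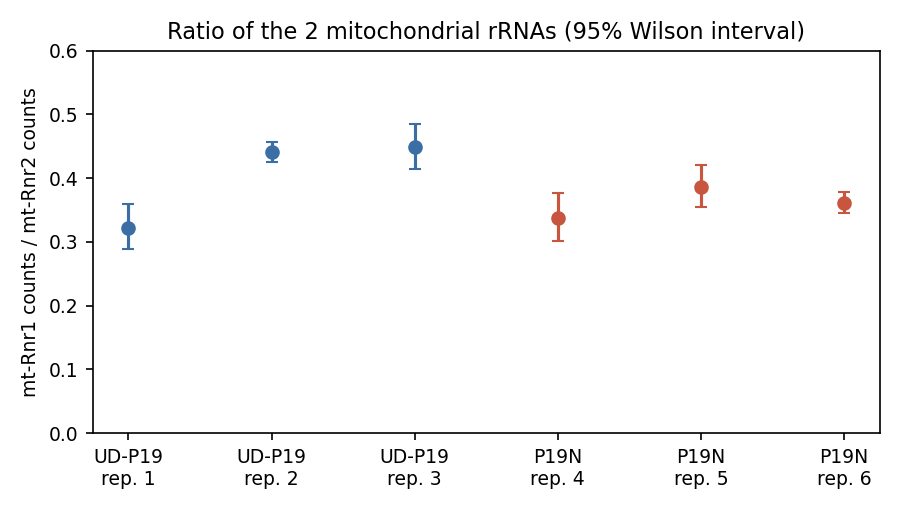
Ratio of mt-Rnr1 to mt-Rnr2 counts in each library, with 95% Wilson intervals that cover counting error only; blue is UD-P19 and red is P19N. The ratios lie between 0.322 and 0.449 and the groups overlap.

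As a share of all counts, mt-Rnr1 and mt-Rnr2 together took 0.379%, 1.88% and 0.383% in UD-P19 replicates 1 to 3, and 0.183%, 0.342% and 1.56% in P19N replicates 4 to 6. The Wilson interval of the lowest share was 0.175% to 0.192% and that of the highest 1.85% to 1.91%. The means were 0.881 ± 0.867% in UD-P19 and 0.693 ± 0.751% in P19N (SD, n = 3 each), and the difference of -0.188 percentage points was not significant (exact permutation test, p = 0.5, adjusted p = 0.5). It turned positive without UD-P19 replicate 2 (0.313), without P19N replicate 4 (0.0676) and with unique counts (0.543), and was -1.08 with Gm42418 left out of the total. Every count of both rRNAs was unique, so unique counts changed only the total. Unique counts were a smaller part of each P19N library than of any UD-P19 library. Against cytosolic rRNA the order of the groups differed: for every 1000 counts of Gm42418 there were 6.30, 38.3 and 5.80 mitochondrial rRNA counts in UD-P19 and between 11.0 and 85.7 in P19N. These ranges also overlapped, through UD-P19 replicate 2.

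Of the cytosolic rRNAs, Gm42418 and n-R5-8s1 were lower in P19N, and the summed share of the 5S copies, which was not tested, lay lower in each P19N library than in any UD-P19 library. The log2 fold change of Gm42418 was -1.97 (SE 0.27, adjusted p = 7.05e-05), with no overlap between the groups. n-R5-8s1, the 5.8S rRNA gene, had 70, 433 and 183 counts in UD-P19 and 57, 33 and 33 in P19N (log2 fold change -2.65, SE 0.50, adjusted p = 0.00115), and none of its 809 counts was listed as exact. The 103 copies of the 5S rRNA gene (n-R5s), of whose counts 1.18% to 2.10% were listed as unique in a library, together took 13.2%, 23.2% and 11.9% of the counts in UD-P19 and 9.44%, 11.5% and 7.63% in P19N, and no fold change is given for single copies. Within UD-P19, n-R5-8s1 and the 5S copies were highest in replicate 2, as the mitochondrial rRNAs were, and Gm42418 was lowest there. Within P19N, none of the 3 was highest in CPM in replicate 6. As a share of all counts, Gm42418 was highest there (16.6%, 16.3% and 18.2% in replicates 4 to 6), while n-R5-8s1 and the 5S copies were not.

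The tRNAs at the borders of the rRNAs were far lower in count. mt-Tf had 3, 11 and 8 counts in UD-P19 and 3, 0 and 6 in P19N, mt-Tv had 16, 290 and 35 against 46, 42 and 87, and mt-Tl1 had 12, 168 and 23 against 17, 12 and 32. mt-Tv and mt-Tl1 thus peaked in UD-P19 replicate 2, as the rRNAs did, and were highest within P19N in replicate 6. The 0 of mt-Tf in P19N replicate 5 allows up to 3 counts, or 3.96 CPM. None of the 3 was called: the log2 fold changes were -1.51 for mt-Tf (adjusted p = 0.199), -0.95 for mt-Tv (adjusted p = 0.312) and -1.75 for mt-Tl1 (adjusted p = 0.0830).

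Counts per 1000 bases put the neighbours on one scale. mt-Rnr2 had between 769 and 5818 counts per 1000 bases in the 6 libraries, mt-Rnr1 between 429 and 4249, mt-Tv between 232 and 4203, mt-Tl1 between 160 and 2240, and mt-Tf between 0 and 162. mt-Tv was below mt-Rnr1 in 5 of 6 libraries, the exception being P19N replicate 4, and mt-Tl1 was below mt-Rnr1 and above mt-Tf in 6 of 6. In UD-P19 replicate 2 mt-Tv (4203) and mt-Rnr1 (4249) were nearly level per base, although 29.3% of the mt-Tv counts and 68.3% of the mt-Rnr1 counts were listed as exact there.

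Exact matches were a larger part of the rRNA counts than of the libraries as a whole. They made up 81.6%, 68.3% and 79.4% of the mt-Rnr1 counts in UD-P19 replicates 1 to 3 and 82.9%, 77.3% and 82.5% in P19N replicates 4 to 6. For mt-Rnr2 they were 80.9%, 68.8% and 80.7%, and 82.0%, 80.9% and 82.4%. UD-P19 replicate 2 was lowest for both, as it was for all counts.

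Among the mitochondrial tRNAs, the rest of the mitochondrial RNAs in the table, changes went both ways. All 22 were listed and 21 had the total of 15 counts needed for a test, mt-Tl2 being the exception with 14. Of the 21, 5 were called (23.8%, against 24% of all transcripts tested), 2 higher and 3 lower in P19N, where 15% of all tested transcripts were called higher and 9.02% lower. The median log2 fold change of the list was -0.03, beside 0.21 over all tested transcripts, and it was the same with mt-Tw held at the bound that 3 counts allow.

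mt-Ts2, a tRNA for serine, had 1005, 997 and 1496 counts in UD-P19 and 7409, 5533 and 7974 in P19N, with no overlap (log2 fold change 2.15, SE 0.37, adjusted p = 0.000663). mt-Tc (cysteine) also rose, from 6, 60 and 14 counts to 81, 79 and 126 (log2 fold change 1.73, adjusted p = 0.0392). mt-Ts1, another tRNA for serine, fell from 102, 85 and 156 counts to 24, 33 and 72 (log2 fold change -1.82, adjusted p = 0.0240). mt-Ty (tyrosine) fell from 14, 61 and 26 counts to 3, 4 and 19 (log2 fold change -2.11, adjusted p = 0.0336), and mt-Tw (tryptophan), with 4, 23 and 4 counts against 1, 0 and 0, was also lower (adjusted p = 0.00506). The calls of mt-Ts2 and mt-Tw held in every alternative that gave them a value (16 and 13). mt-Tw, with 23 counts in UD-P19 replicate 2, fell below the 15 needed for a test without that library. The calls of mt-Tc, mt-Ty and mt-Ts1 held in 6, 10 and 11 of 16 alternatives, and none of the 5 changed direction. All 3 calls were lost with library totals only and with unique counts, those of mt-Tc and mt-Ty also with TMMwsp scaling, and that of mt-Tc also with the size factors of DESeq2 and with Gm42418 left out before scaling. Each of the 3 was further lost without P19N replicate 4 and without P19N replicate 5, that of mt-Tc also without P19N replicate 6, UD-P19 replicate 1 or UD-P19 replicate 3, that of mt-Ty without UD-P19 replicate 2 and that of mt-Ts1 without UD-P19 replicate 3.

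**Figure D4:**
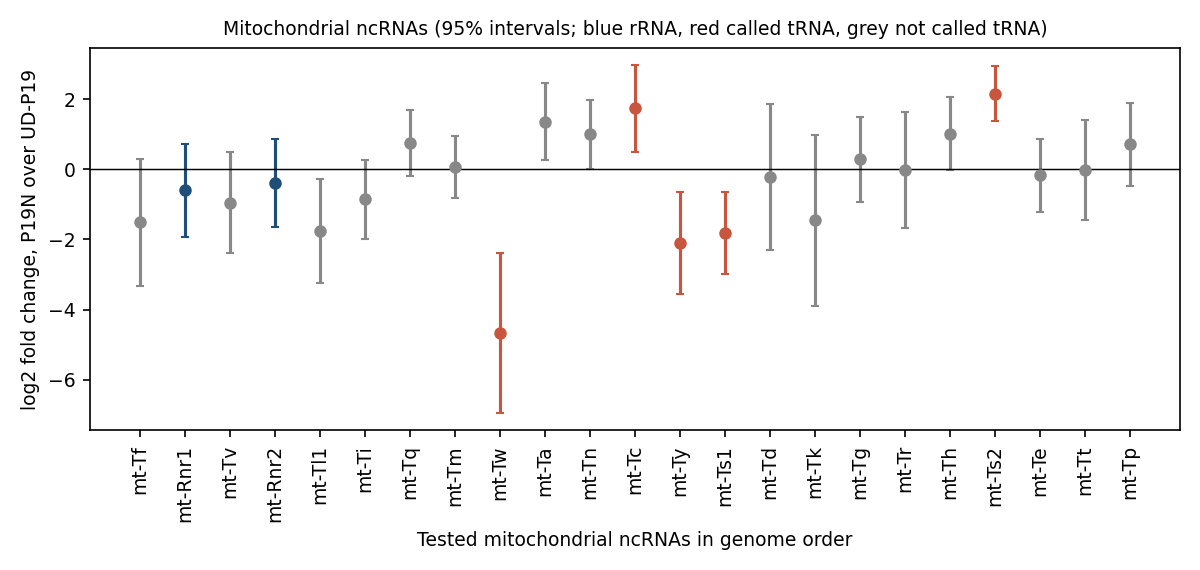
Fitted log2 fold change, P19N over UD-P19, with 95% intervals for the 23 tested mitochondrial ncRNAs in genome order; blue marks the rRNAs, red the called tRNAs and grey the tRNAs not called. Both rRNA intervals cross 0, those of the called mt-Tc and mt-Ts2 and of mt-Ta and mt-Tn, which were not called, lie above 0, and those of the called mt-Tw, mt-Ty and mt-Ts1 and of mt-Tl1, which was not called, lie below it.

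The rRNAs took a smaller part of the mitochondrial counts in each P19N library than in any UD-P19 library. mt-Rnr1 and mt-Rnr2 together were 41.9%, 71.6% and 44.7% of the mitochondrial ncRNA counts in UD-P19 replicates 1 to 3, and 13.2%, 23.3% and 39.7% in P19N replicates 4 to 6. The groups did not overlap on this share, where the scaled levels of 42% of all tested transcripts did not overlap either. The means were 52.7 ± 16.3% and 25.4 ± 13.4% (SD, n = 3 each), a difference of -27.4 percentage points with the smallest p that 3 against 3 libraries can give (exact two-sided permutation test, p = 0.1, adjusted over 3 tests p = 0.3). mt-Ts2 alone took 24.5%, 5.38% and 22.9% of the mitochondrial counts in UD-P19 and 59.9%, 49.6% and 34.6% in P19N. With mt-Ts2 left out of the total, an alternative chosen after seeing the data, the rRNA share was 55.5%, 75.6% and 58.1% in UD-P19 and 32.8%, 46.3% and 60.6% in P19N, and the groups overlapped. The difference was then -16.5 percentage points, and with mt-Ts2 kept but UD-P19 replicate 2 left out it was -18.0.

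**Figure D5:**
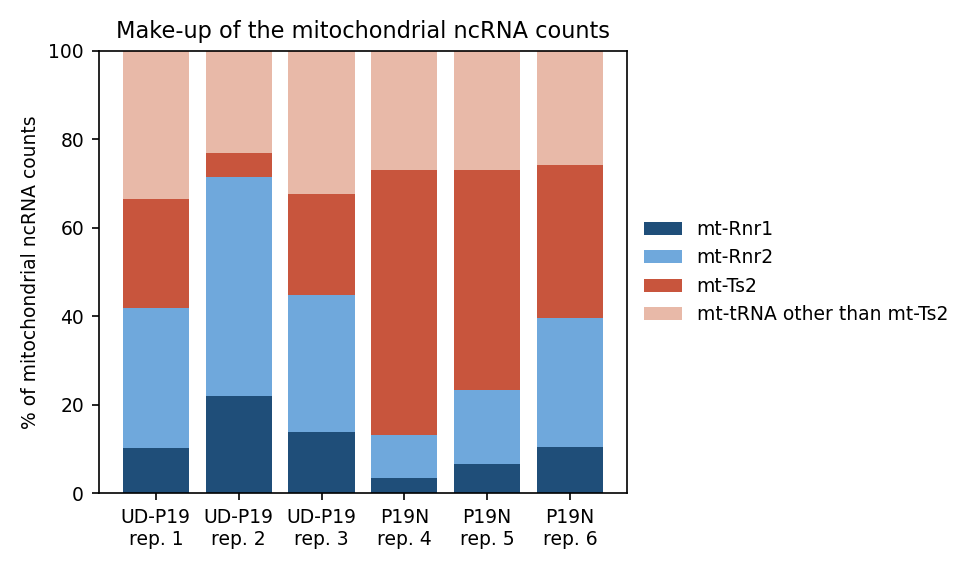
Share of the mitochondrial ncRNA counts (%) taken by mt-Rnr1, mt-Rnr2, mt-Ts2 and the other mitochondrial tRNAs in each library, as stacked bars that add to 100. The rRNAs in blue take 41.9% to 71.6% in UD-P19 and 13.2% to 39.7% in P19N, and mt-Ts2 in red takes more in each P19N library than in any UD-P19 library.

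The RNAs whose levels over the 6 libraries were most like those of the rRNAs were sought by Pearson's r of log2 CPM among 435 other transcripts that averaged 10 or more counts and had some unique counts. These r rest on 6 points, of which UD-P19 replicate 2 and P19N replicate 6 carry most of the range, and are a description without a test. Each rRNA was the closest to the other, with r = 0.99. The next for both was mt-Te, the tRNA for glutamate, with r of 0.98 to either. mt-Te lies on the minus strand at chrM:14071-14139, away from the rRNA genes, and had 62, 286 and 122 counts in UD-P19 and 97, 116 and 251 in P19N. Rank 3 for both was Snord14d, a small nucleolar RNA of the C/D box class (r = 0.93 with mt-Rnr1 and 0.92 with mt-Rnr2), for which 538 of 1076 counts were unique. The top 5 were completed by 4933427J07Rik (r = 0.89, 13 of 71 counts unique) and mt-Tl1 (r = 0.85) for mt-Rnr1, and by mt-Tt, the tRNA for threonine (r = 0.89), and 4933427J07Rik (r = 0.86) for mt-Rnr2. mt-Ts2 was far from both, with r of -0.41 and -0.35.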

How the data were processed

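Exosomal small RNA of 3 UD-P19 and 3 P19N preparations was sequenced by the authors as paired reads. They matched the reads, in CLC Genomics Workbench (version not given in the sources used here), to the ncRNA set of GRCm38, and deposited raw counts per transcript, with counts of unique and exact matches. Neither column is defined in the sources used here: unique was read as matching a single transcript and exact as matching without a mismatch, and both readings were assumed. Whether strand was used is not given. The deposited group means, ranges, fold changes, p-values and FDR of the authors' edgeR comparison were not used.

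Identifiers were matched to GENCODE mouse release 21 (5777 of 5880). edgeR 4.0.16 (R 4.3.3) was fitted to all transcripts that reached 15 counts in total, using its quasi-likelihood F test, TMM scaling and Benjamini-Hochberg adjustment. A call needs an adjusted p no larger than 0.05. Shares and ratios were compared by permuting libraries (exact, two-sided) in Python 3.11.15 with scipy 1.17.1. Wilson intervals and the limit of 3 counts for a count of 0 cover counting error only. Log2 CPM used a prior count of 2. Alternatives were other scalings, filters and tests (DESeq2 1.42.0 among them), unique or exact counts, and each library left out. Named transcripts were the 2 rRNAs, their bordering tRNAs, the called mitochondrial tRNAs and the one with most counts, 3 kinds of cytosolic rRNA, and the 5 transcripts most like each rRNA. Also named were some markers of undifferentiated cells and neurons, the untested mt-Tl2, and mt-Ta and mt-Tn, whose intervals lay above 0. The members and all lists were chosen with earlier results of these data known.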

Additional observations from a re-analysis of the deposited data

How the results depend on the processing

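Across 10 settings that kept all libraries (other scalings, count filters, tests, unique or exact counts), the log2 fold change stayed between -0.74 and -0.51 for mt-Rnr1 and between -0.52 and -0.28 for mt-Rnr2, and neither was called. With 1 library left out they ran from -1.76 to 0.73 and from -1.56 to 0.82, the upper ends being without UD-P19 replicate 2. The difference in the share of all counts was -0.188 percentage points, 0.543 with unique counts, -1.08 with Gm42418 out of the total and -2.68 with Gm42418, snRNAs and rRNAs out of it (added after seeing the data). It ran from -0.619 to 0.313 with 1 library left out, and was 0.0676 without P19N replicate 4. The log2 ratio difference ran from -0.30 (without UD-P19 replicate 1) to -0.06 (without UD-P19 replicate 3), and that of the share of mitochondrial counts from -34.5 to -18.0. Calls over all tested transcripts numbered 309, 127 with unique counts, and from 199 (P19N replicate 4) up to 533 (UD-P19 replicate 2) with the library in parentheses left out. Called mitochondrial tRNAs numbered 5 of 21, and 3 of 21 with TMMwsp scaling (22.7% of all tested transcripts called). They numbered 2 of 21 with library totals only (22.2%) and with unique counts (24.9%). Higher numbers were 6 of 21 with DESeq2 (29.2%), 7 of 19 with exact counts (37.4%) and 6 of 22 with no count filter (6.08%). With a library left out they ran from 2 of 21 (P19N replicate 4, 17.2% of all called, or replicate 5, 222 of 1171) up to 7 of 18 (UD-P19 replicate 2, 46.6%). For the share of all counts, unique counts changed only the total. What caused the other differences between settings was not tested. With unique counts fewer transcripts reached the test (510 against 1286). No paired analysis was possible because the groups share no replicate numbers. Each rRNA had at least 410 counts in every library, whereas mt-Tf and mt-Tw rest on 31 and 32 counts in all.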
